A study of Homo sapiens with 17 samples.

Results

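The stretch described here is a copy of the ribosomal RNA precursor on human chromosome 21, the hg19 window chr21:9825000-9828000, which carries the microRNA genes MIR3648 and MIR3687. Its members are the eCLIP peaks on the plus strand whose midpoint lies in the window. There were 28 such peaks among the 389788 peaks of all lists. The peaks were chosen by position, and the window itself was selected on the authors' log2 folds in these same lists, so the values are given as a description and no test was run on them. A second stretch that belongs to the same description, a precursor copy on the unplaced contig chrUn_gl000220, could not be described. None of the 11 lists had a peak on any contig outside the numbered chromosomes, X, Y and the mitochondrial one. The lack of peaks on this copy therefore says nothing about it.

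The peaks come from 293T cells, a human embryonic kidney line. In eCLIP, proteins are cross-linked to bound RNA by ultraviolet light, a chosen protein is immunoprecipitated, and the RNA fragments that stay on it are sequenced. The dose was 400 mJ per square cm of light of 254 nm, and RNA was taken from a membrane strip that reached 75 kDa above the size of the protein. The libraries were VIM, RANGAP1, NUMA1, ZNF184 and AIFM1 with 2 replicates each and RNF219 with 1, each immunoprecipitated with its own antibody. Every protein had 1 size-matched input, RNA from the same gel strip without immunoprecipitation, so both replicates of a protein were compared with the same input. All 17 samples, inputs included, were cross-linked. The series calls the replicates biological and says no more about how they were grown.

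Ribosomal RNA is made in the nucleolus as 1 long precursor, which is cut and trimmed to the mature RNAs of the ribosome. The stretches that are cut away are called transcribed spacers, and the one ahead of the small-subunit RNA is the external transcribed spacer. The precursor genes exist in many near-identical copies on the short arms of several chromosomes. Reads from other copies cannot be told apart from reads of this one by position alone, so each value below may stand for several copies. MIR3648 and MIR3687 are annotated as microRNA genes within this spacer.

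RefSeq (GRCh38.p14) places MIR3648-1, of 180 nt, inside the precursor gene RNA45SN2, and the next gene listed is the small-subunit gene RNA18SN2. The copy named MIR3648-2, also 180 nt, has no host gene listed and is followed by MIR10396A. The mature microRNA is shown because it is the only product of the named genes whose letters could be matched, with its seed, bases 2 to 8, in capitals. It lies on the plus strand at chr21:8987026-8987046 of GRCh38.p14, within MIR3648-2, which is another build than that of the peaks.
hsa-miR-3648: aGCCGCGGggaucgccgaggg
Of its 21 bases, 17 are G or C (81.0%), and 0 of the other 2370 mature names in the table share its seed. Where MIR3648 and MIR3687 start and end in hg19 was not analysed here, so no peak is assigned to either gene.

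Each peak has the authors' log2 fold over input and the authors' -log10 p against input. A peak is called significant here when its -log10 p and its log2 fold both reach 3, the second being 8-fold over input. Reads behind a fold were worked back from the pair of values, and they are given as eCLIP reads against input reads. A p at its limit, or the 0 that peaks below input carry, allows any multiple of the smallest pair of whole numbers, and such reads are given as "at least". Of the 28 peaks, 19 had settled reads and 9 did not. Intervals are 95% Clopper-Pearson intervals of the fold and cover counting error only. An SD between replicates leaves out the counting error of the input they share.

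Over all lists there were between 10682 and 63198 peaks per list, and the input was between 0.534 and 4.84 times as deep as the eCLIP library. Total reads per library are unknown. The share of significant peaks in a whole list was 5.29% and 4.5% for VIM replicates 1 and 2, 1.52% and 2.99% for RANGAP1, 1.51% and 0.877% for NUMA1, 3.15% and 4.82% for ZNF184, 0.216% and 0.214% for AIFM1, and 0.926% for RNF219. In the window, 13 of 28 peaks were significant, in 6 libraries of 4 proteins. Since the enrichment of these lists was known when the window was picked, nothing is read from that count against those shares. The members just inside and just outside the fold threshold had log2 folds of 3.17, in NUMA1 replicate 2, and 2.42, in RANGAP1 replicate 2. A further 5 peaks passed the threshold on p but not on fold, and 0 did the reverse.

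All 28 peaks fell into 3 narrow sites that together spanned 414 nt of the 3000-nt window. The sites were drawn after their positions were seen, by joining peaks that share at least 1 nt. The first site, chr21:9825837-9825886, was 50 nt long and had a peak in 10 lists. The second site, chr21:9825921-9825965, was 45 nt long and had a peak in 8 lists. The third site, chr21:9826216-9826250, was 35 nt long and had a peak in 10 lists. A gap of 34 nt lay between the first site and the second, and a gap of 250 nt between the second and the third.

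The same positions were called in list after list, although each list was made from 1 library alone. Peaks of the first site were 30 to 44 nt long, those of the third 15 to 31 nt, and those of the second 3 to 43 nt. Every peak of the first site covered bases 9825851 to 9825877. Among 111710 merged plus-strand regions of all lists, 1739 (1.56%) had a peak in at least 8 lists and 699 (0.626%) in at least 10. RNF219 had no peak in the window, which says only that its list holds none there, since reads below a peak call are not known. No list had a minus-strand peak in the window. Chromosome 21 had no peak ahead of these sites in any list. The last member ended 1750 nt before the window's end, and the nearest peak after it, at chr21:9911874-9911893 on the minus strand in AIFM1 replicate 1 (log2 fold 2.28), was 85623 nt away.

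**Figure D1:**
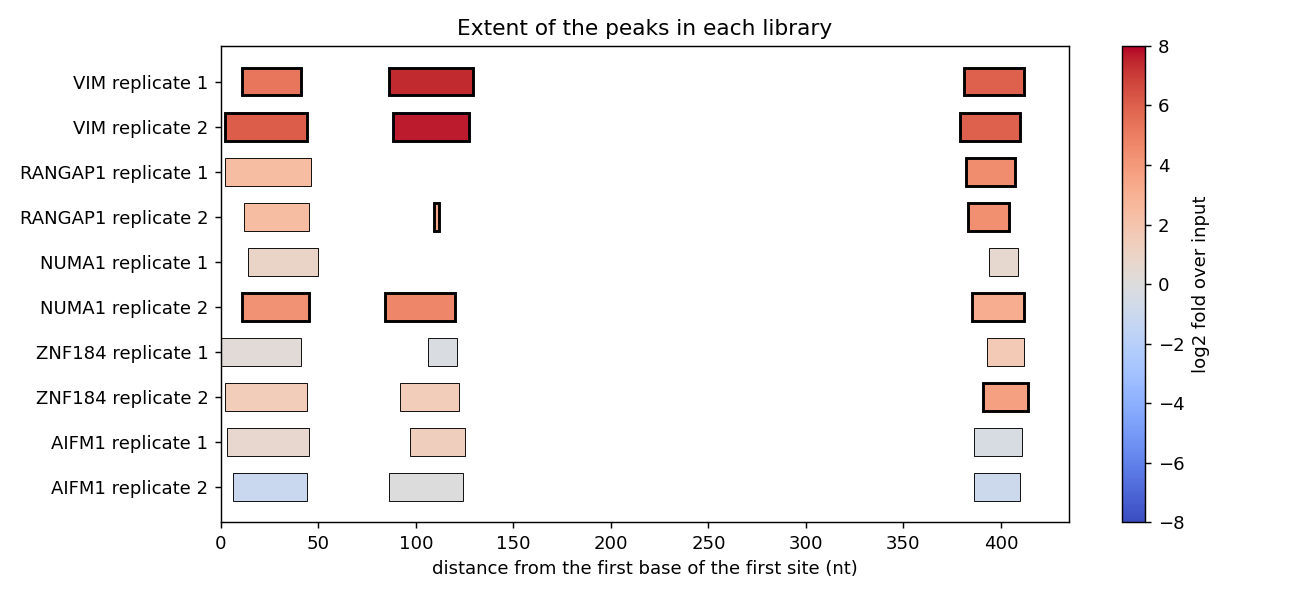
Extent of each member peak by library, against the distance in nt from the first base of the first site. Colour gives the log2 fold over input and a thick outline marks a significant peak; RNF219 had no peak. Peaks line up in 3 sites across 10 libraries, and VIM has the deepest red at all 3.

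VIM, the intermediate filament protein vimentin, had the highest log2 fold at each of the 3 sites. All 6 of its peaks were significant. At the first site the log2 fold was 5.30 in replicate 1 (65 eCLIP reads against 8 input reads, interval 4.23 to 6.57) and 6.07 in replicate 2 (at least 164 against at least 8). At the second site it was 7.42 (at least 71 against at least 2) and 7.68 (at least 125 against at least 2). At the third site it was 5.98 (at least 91 against at least 7) and 5.99 (at least 155 against at least 8). The replicates thus differed by at most 0.77, and the second site stood above the first by 1.87 ± 0.37 (SD, n = 2). Within their lists these peaks were near the top: the second site ranked 11 of 10682 peaks in replicate 1 and 7 of 14443 in replicate 2, and the lowest rank of the 6 was 61, for the first site in replicate 1. Of the 6 VIM peaks, the first site in replicate 1 alone had settled reads, so the other VIM folds have no interval. The median log2 fold over the window averaged 6.02 ± 0.066 (SD, n = 2).

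RANGAP1 is the protein that makes the small GTPase Ran hydrolyse GTP at the nuclear pore. Each of its peaks was above input, the third site was the highest in both libraries, and the replicates were nearly equal. The third site had log2 folds of 4.47 in replicate 1 (30 eCLIP reads against 2 input reads, interval 2.49 to 7.58) and 4.42 in replicate 2 (24 against 2, interval 2.41 to 7.54). Both were significant, and they ranked 50 of 53243 and 137 of 51526 in their lists. The first site had 2.39 (32 against 9) and 2.42 (27 against 9), and neither passed the fold threshold. At the second site replicate 1 had no peak, and replicate 2 had a peak of 3 nt with a log2 fold of 3.29 (11 against 2, interval 1.09 to 6.50), which was significant. The third site minus the first was 2.08 and 2.00 in the 2 replicates. The window median averaged 3.36 ± 0.099 (SD, n = 2), but the 2 medians rest on different sites. In replicate 1 the median lay midway between the first site and the third. In replicate 2 it was the peak of 3 nt at the second site. The small SD is therefore no measure of agreement over the window.

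NUMA1, a nuclear matrix protein that organises the poles of the mitotic spindle, was high in 1 of its libraries. In replicate 2 all 3 peaks were significant. The first site had a log2 fold of 4.25 (102 eCLIP reads against 17 input reads, interval 3.50 to 5.09), the second 4.70 (49 against 6, interval 3.47 to 6.21) and the third 3.17 (71 against 25, interval 2.50 to 3.89). In replicate 1 the first site had 0.93 (18 against 17, interval -0.11 to 1.98), the third had 0.60 (21 against 25, interval -0.31 to 1.49), and the second had no peak. At neither shared site did the intervals of the replicates overlap. The input reads were the same in both replicates, while the eCLIP reads were more in replicate 2 and its eCLIP library was shallower, the input being 3.18 times as deep as replicate 2 and 1.80 times as deep as replicate 1. The mean log2 fold of NUMA1 was 2.59 ± 2.35 at the first site and 1.89 ± 1.82 at the third (SD, n = 2), and these means describe neither library. The window median was 0.76 in replicate 1 and 4.25 in replicate 2.

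ZNF184, a zinc finger protein of the Krüppel type, differed between its libraries in the same direction at each site. The third site had log2 folds of 1.65 in replicate 1 (23 eCLIP reads against 10 input reads, interval 0.52 to 2.88) and 3.72 in replicate 2 (86 against 10, interval 2.77 to 4.83), the only significant ZNF184 peak. At the first site the folds were 0.26 (36 against 41, interval -0.43 to 0.94) and 1.44 (73 against 41, interval 0.87 to 2.03). At the second they were -0.21 (at least 7 against at least 11) and 1.44 (39 against 22). Within each library the third site was above the first, by 1.39 and 2.27 on the log2 scale. The window median averaged 0.85 ± 0.84 (SD, n = 2).

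AIFM1, a flavoprotein of the mitochondrial intermembrane space, had the most input reads at the sites and no significant peak. Replicate 1 had log2 folds of 0.65 at the first site (121 eCLIP reads against 94 input reads, interval 0.24 to 1.05), 1.33 at the second (60 against 29, interval 0.67 to 2.02) and -0.36 at the third (at least 84 against at least 131). Replicate 2 had -1.08 (at least 83 against at least 94), 0.045 (56 against 29, interval -0.63 to 0.75) and -0.96 (at least 126 against at least 131). The third site was below input in both libraries, and the second was the highest of the 3 in both. The window median averaged -0.16 ± 1.14 (SD, n = 2).

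At the third site the order of the mean log2 folds was VIM 5.98 ± 0.0081, RANGAP1 4.44 ± 0.038, ZNF184 2.68 ± 1.46, NUMA1 1.89 ± 1.82 and AIFM1 -0.66 ± 0.42 (SD, n = 2 each). VIM, RANGAP1 and AIFM1 each lay outside the range of the libraries of the other proteins. At every site the replicates of a protein share 1 input, so these SDs and ranges leave out its counting error. The RANGAP1 input had 2 reads at the third site. The RANGAP1 intervals there, 2.49 to 7.58 and 2.41 to 7.54, held both VIM folds. They also held the folds of ZNF184 replicate 2, 3.72, and NUMA1 replicate 2, 3.17. ZNF184 and NUMA1 overlapped. At the first site the order was VIM 5.68 ± 0.55, NUMA1 2.59 ± 2.35, RANGAP1 2.40 ± 0.017, ZNF184 0.85 ± 0.84 and AIFM1 -0.22 ± 1.22 (SD, n = 2 each). There, VIM lay above all other libraries. The range of NUMA1 held both RANGAP1 libraries and overlapped that of ZNF184, RANGAP1 lay above ZNF184 without overlap, and ZNF184 and AIFM1 overlapped. At the second site VIM had 7.55 ± 0.18, AIFM1 0.69 ± 0.91 and ZNF184 0.62 ± 1.16 (SD, n = 2 each), while RANGAP1 and NUMA1 had 1 library each.

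**Figure D2:**
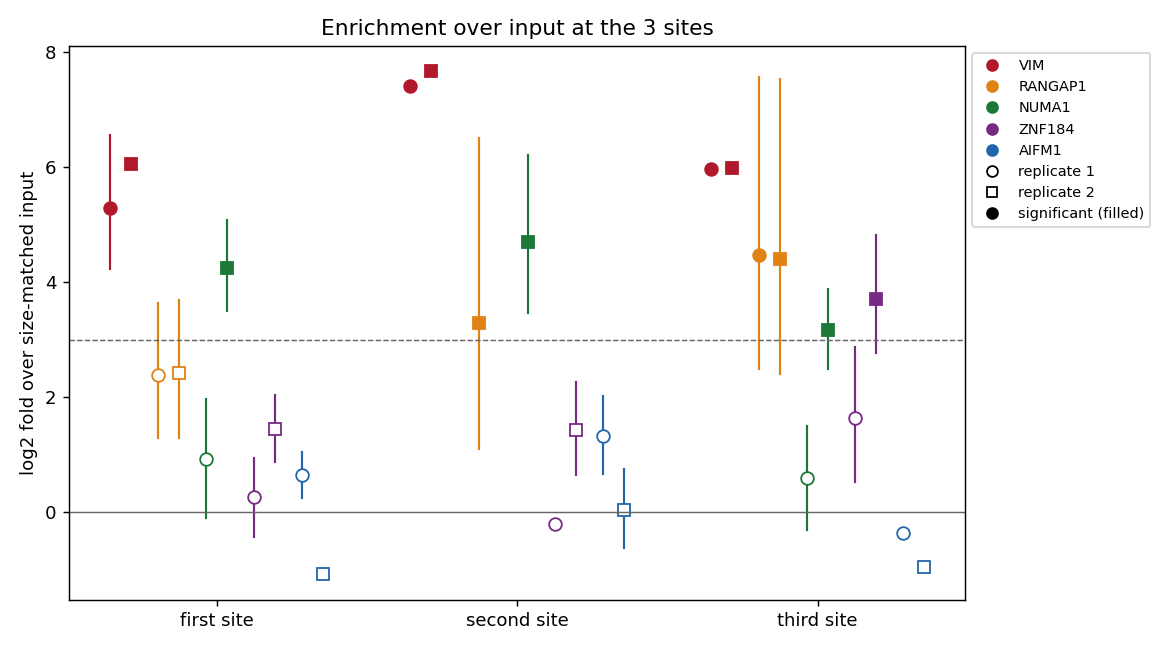
Log2 fold over size-matched input at the 3 sites, 1 point per library, coloured by protein. Filled points are significant, vertical lines are 95% Clopper-Pearson intervals for settled reads, the dashed line is the fold threshold of 3 and the solid line is equality with input. VIM lies at 5.30 or higher at every site, and AIFM1 lies below 0 in both libraries at the third site.

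The window was also divided into fixed 50-nt bins, which hold the same peaks as the sites and so are no second look at them. At least 3 lists had a significant peak in the bins that start at 9825801 and 9825851 (3 lists each), 9825901 (4 lists), 9825951 (3 lists) and 9826201 (6 lists). The last of these bins holds the third site, where VIM, RANGAP1, NUMA1 and ZNF184 each had at least 1 significant library. No bin had significant peaks in both replicates of 1 protein alone.

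Along the precursor, the proteins ordered the sites differently, and the reads on both sides of the ratio are given here. In the 6 libraries whose reads were settled at both the first site and the third, eCLIP reads at the third site were 0.639 to 1.18 times those at the first. Input reads at the third site were 0.222 to 1.47 times those at the first. RANGAP1 had 30 and 24 eCLIP reads at the third site and 32 and 27 at the first, while its input had 2 at the third and 9 at the first. The ZNF184 input had 10 reads at the third site and 41 at the first, a ratio of 0.244. The NUMA1 input had 25 and 17, a ratio of 1.47. The 6 libraries share 3 inputs, and the RANGAP1 input had 2 reads at the third site. The higher fold of the third site in RANGAP1 and ZNF184 went together with fewer input reads there, and the part of the input in it was not tested.

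**Figure D3:**
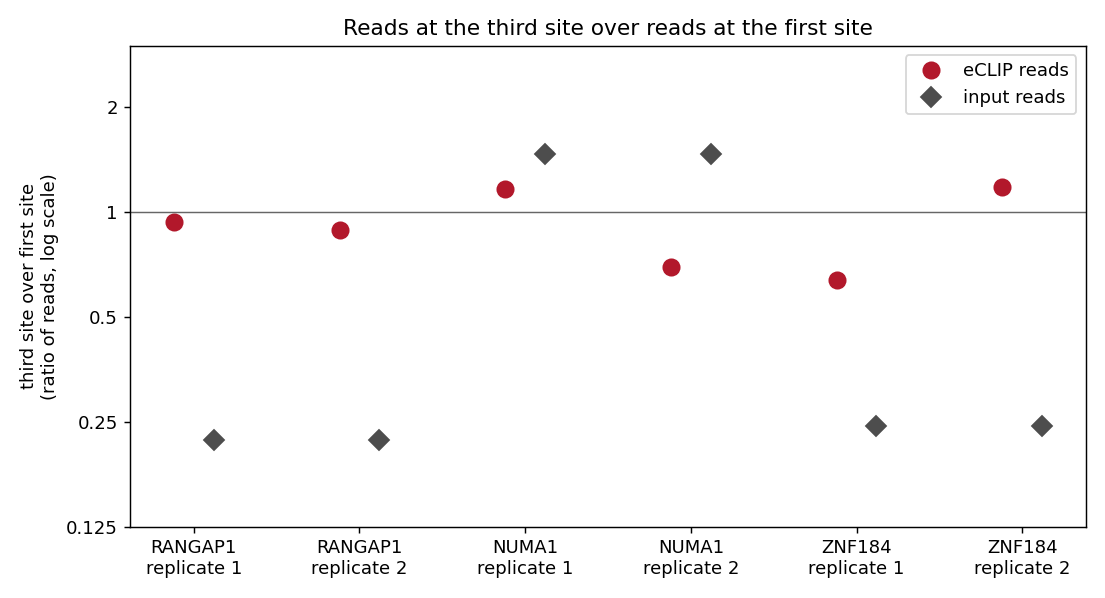
Reads at the third site over reads at the first site, on a log scale, in the 6 libraries with settled reads; red circles are eCLIP reads and grey diamonds input reads of the same protein. The eCLIP ratios run from 0.639 to 1.18, and the input ratios from 0.222 in RANGAP1 to 1.47 in NUMA1.

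The second site had few input reads beside the first in several proteins. AIFM1 had 29 input reads there and 94 at the first site, NUMA1 6 and 17, and RANGAP1 2 and 9. The eCLIP reads at the second site were also fewer, 60 against 121 in AIFM1 replicate 1, 49 against 102 in NUMA1 replicate 2 and 11 against 27 in RANGAP1 replicate 2. In these 3 libraries the second site had the higher fold, by 0.68, 0.44 and 0.87 on the log2 scale. ZNF184 replicate 2 had 39 eCLIP reads at the second site and 73 at the first (log2 folds 1.44 at both). In VIM replicate 1 the second site had at least 2 input reads and the first 8, and the second fold was higher by 2.13. VIM replicate 2 had at least 2 and at least 8 input reads, and the second fold was higher by 1.61.

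Replicates of a protein shared 13 site positions, and the recovered input reads could be set side by side there. They were equal in 11 of 13. In the 7 pairs whose reads were settled on both sides all 7 were equal, both replicates having been set against 1 input. In each of the other 2 pairs at least 1 replicate gave only the least whole numbers.

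The replicate gaps at the sites were set against all other places where both replicates of a protein had overlapping peaks. The window was selected on these same folds, which may favour large gaps, so the places given are a description. For NUMA1, replicate 2 minus replicate 1 was 3.32 at the first site and 2.58 at the third. Over 11216 other NUMA1 pairs the median was 0.196, with 5th and 95th percentiles of -0.77 and 1.23. The sites lay above 99.96% and 99.84% of these pairs. Among the 5769 pairs with at least 10 input reads they lay above 99.97% and 99.84%. For ZNF184 the gaps of 1.19, 1.64 and 2.07 at the first site, the second and the third lay above 94.0%, 97.8% and 99.2% of 21757 other pairs, whose median was -0.040. AIFM1 had gaps of -1.73, -1.28 and -0.60, with 2.18%, 7.85% and 36.9% of 5093 pairs below them. RANGAP1 gaps were 0.023 at the first site and -0.053 at the third. VIM gaps were 0.77, 0.25 and 0.011, above 92.4%, 79.4% and 67.9% of 3224 other pairs. NUMA1 and ZNF184 thus stood higher in replicate 2 at every shared site, and AIFM1 lower.

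**Figure D4:**
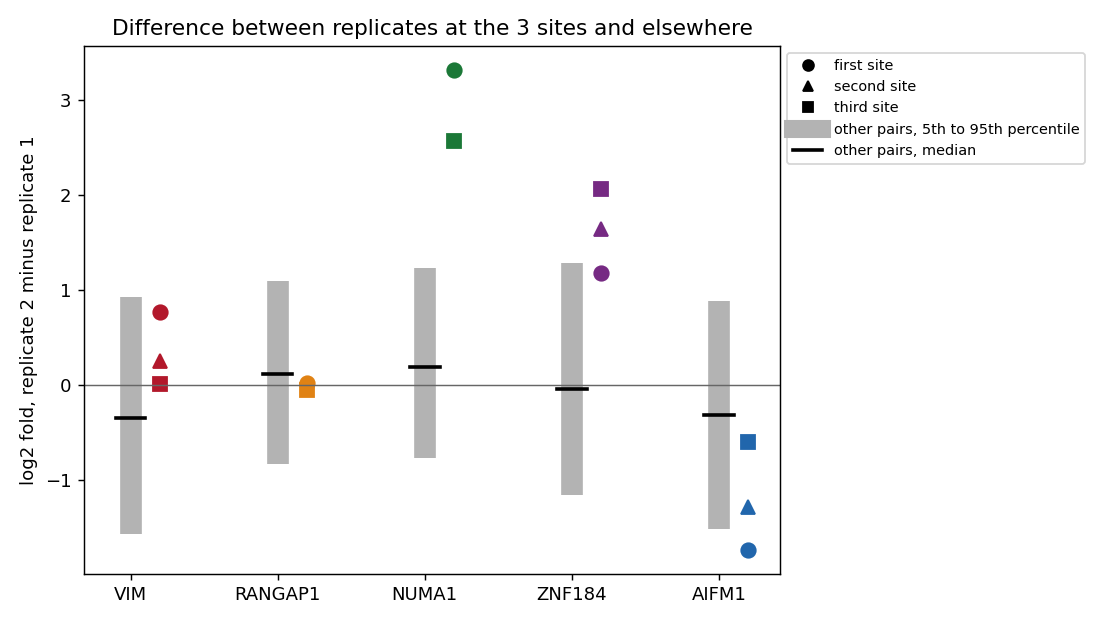
Log2 fold of replicate 2 minus replicate 1 at the sites (coloured points, shape by site), beside the 5th to 95th percentile (grey bar) and median (black line) of all other overlapping peak pairs of the same protein. NUMA1 at 3.32 and 2.58 and ZNF184 at 1.64 and 2.07 lie above their bars, and AIFM1 at -1.73 lies below its bar.

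The members were also placed among plus-strand peaks of their own list with at least as many input reads. Input reads are the lower part of the fold, so such sets lean to low folds and a high place is partly built in. No enrichment is read from these places. Where reads are given as "at least", as for VIM at the third site, ZNF184 replicate 1 at the second and AIFM1 replicate 2 at the first and the third, this set was built on the least number. NUMA1 replicate 2 lay above 99.87% of 2287 such peaks at the first site and above 99.80% of 1520 at the third. In the whole list the third site ranked 3026 of 29762. ZNF184 replicate 2 lay above 99.5% of 6912 such peaks at the third site. AIFM1 replicate 1 lay above 91.5% of 129 such peaks at the first site and above 96.5% of 258 at the second, against 26.9% and 58.4% of all its plus-strand peaks. NUMA1 replicate 1 lay above 79.9% and 73.5% at the first site and the third, and ZNF184 replicate 1 above 59.8%, 16.8% and 92.3% at the first site, the second and the third. AIFM1 replicate 2 lay above 46.2%, 74.6% and 50.9%. At the third site both replicates of VIM and RANGAP1 lay above 99.78% to 99.96% of such peaks. For RANGAP1 such peaks made up 83.7% and 82.8% of all plus-strand peaks in replicates 1 and 2. That set therefore differed little from the whole list.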

How the data were processed

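The deposited files were 11 peak lists on hg19, 1 per eCLIP library, with replicates not pooled. Per the submitters' processing notes, cutadapt, STAR, GATK, Picard and SAMtools were used. How peaks were called and whether PCR copies were removed: not given in the sources used here. Each list holds the authors' -log10 p and the authors' log2 fold over the size-matched input.

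From these values the eCLIP and input reads were recovered. A fold is a ratio of whole numbers times 1 constant per list, and p was matched within 0.005 on the log10 scale to an exact p where a number was under 5 and otherwise to a chi-square p. Between 98.1% and 99.8% of the p-values in a list matched. Values of 400 mark p too small to compute. The arithmetic was checked on data simulated with the same formulas, which is no check of the deposited lists. Python 3.11.15, numpy 2.4.6, pandas 2.3.3 and scipy 1.17.1 were used.

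The members, the thresholds and the bins were chosen with earlier results of these data known, and no test was run. Named were the highest and lowest peak of each library or protein, the peaks nearest the fold threshold and the window's ends, and 50-nt bins with significant peaks in at least 3 lists. Alternatives were other thresholds, window rules, weights, centring, minimum input reads, 100-nt bins and leaving out each library.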

Additional observations from a re-analysis of the deposited data

Results flagged for a closer look

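At the third site AIFM1 was below input in both replicates, while both replicates of each of the other 4 proteins with a peak there were above input. The mean log2 fold was 5.98 ± 0.0081 in VIM and -0.66 ± 0.42 in AIFM1 (SD, n = 2 each), a difference of 6.64. RANGAP1 minus AIFM1 was 5.10, ZNF184 minus AIFM1 was 3.34 and NUMA1 minus AIFM1 was 2.55. The NUMA1 mean describes neither of its libraries, which had 0.60 and 3.17. The interval of NUMA1 replicate 1, -0.31 to 1.49, included equality with input. These differences were not tested, and each protein was set against its own input. The SDs leave out the counting error of that shared input. Input reads at this site were at least 7 for VIM, 2 for RANGAP1, 10 for ZNF184, 25 for NUMA1 and at least 131 for AIFM1.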

How the results depend on the processing

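The number of significant peaks was 13 and ran from 10 to 15 over the other thresholds, the other window rule and the lists without 1 library each. The number of libraries with such a peak was 6 and ran from 5 to 6. Of the recomputed values, 6 moved by more than their spread or, for counts, by over 1.5 times, and 62 did not. For window medians the spread was between replicates, and for bins between lists of several proteins. The spread between replicates was wide in NUMA1 and AIFM1. Part of the 62 could not have moved. Leaving out 1 of 2 replicates shifts a mean by less than their SD. No library held enough significant peaks to change a count by 1.5 times. No peak lay near the window's ends, so the other window rule changed nothing. The window median of RANGAP1 was 2.40 with peaks weighted by length and 2.40 among peaks with at least 5 input reads, a minimum added after the read numbers were seen, against 3.36. That minimum gave 5.83 for VIM, against 6.02. After subtraction of each list's median over plus-strand peaks it was 3.77 for VIM, 2.03 for RANGAP1, 1.15 for NUMA1 against 2.51, -0.42 for ZNF184 against 0.85 and -1.08 for AIFM1 against -0.16. Without replicate 1 or replicate 2 the NUMA1 median ran from 0.76 to 4.25, that of ZNF184 from 0.26 to 1.44 and that of AIFM1 from -0.96 to 0.65, across 0. RNF219 gave no value. With at least 10 input reads RANGAP1 had no peak, and VIM had none on the least numbers known. No paired analysis was possible because the results come from no test. An input of 2 reads limits the folds of RANGAP1 at the third site. The VIM folds at the second site, the highest of all, rest on an input of at least 2 and under 5 reads. Reads may include PCR copies, so intervals may be too narrow.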

Other observations

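The gap between the NUMA1 replicates was not limited to the precursor window. With a limit of 2 on the log2 scale, set after the data were seen, 64 of 11216 other NUMA1 peak pairs had replicate 2 that far above replicate 1, on 20 chromosomes, and 0 had replicate 1 that far above replicate 2. At 11 of the 64 (17.2%) both VIM libraries had a significant peak overlapping the NUMA1 replicate 2 peak, against 53 of the remaining 11152 pairs (0.475%). Significant NUMA1 replicate 2 peaks made up 22 of the 64 and 139 of the 11152. Among these, both VIM libraries were significant at 8 of 22 and at 18 of 139. The overlap is given for VIM alone, so it is not shown to be particular to VIM. The 64 pairs were picked for a high replicate 2, and no cause of the gap was tested. The labels do not say which libraries were pooled during preparation.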
